A study of Mus musculus with 6 samples.

Results

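Hyaluronan is a long, unsulfated sugar chain of the extracellular matrix. The genes described here are grouped under its synthesis, binding and turnover. They are the synthases Has1, Has2 and Has3, the hyaluronidases Hyal1 and Hyal2, the receptor gene Cd44 and the scavenger receptor gene Stab1. The proteoglycan gene Vcan and the hyaluronan-binding protein gene Tnfaip6 complete the list. Members were all probe sets that the array annotation gives to exactly 1 gene symbol among these 9 genes. The rule found 19 probe sets of 8 genes, out of 45037 probe sets and 18193 genes tested. Hyal1 had 0 such probe sets, because both probe sets that carry its symbol (2 in all) are also given to a second gene, so no value is reported for it. Of the others, Vcan had 8 probe sets, Cd44 had 4, Has2 had 2, and Has1, Has3, Hyal2, Tnfaip6 and Stab1 had 1 each.

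The tissue was the tracheal mesenchyme of adult male C57Bl/6 mice, left whole after the epithelium had been loosened for 23 min in dispase and peeled away. There were 3 samples taken 48 h post injury (hpi), from mice that had breathed 500 ppm SO2 for 4 h, and 3 samples from normal control mice, and each sample pooled 4 mice. The gas kills the luminal cells of the airway epithelium, and the question behind the arrays was how the tissue beneath changes while the epithelium is repaired. Because every sample is a pool, the p-values below rest on pool-to-pool spread, and leukocytes were not removed from this tissue.

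Hyaluronan synthases sit in the plasma membrane, join activated sugars from the cytoplasm and push the growing chain out of the cell. Outside, versican and link proteins bind the chain into large aggregates, TSG-6 (the product of Tnfaip6) and the inter-alpha-trypsin inhibitor heavy chains cross-link it, and Cd44 tethers it to fibroblasts and leukocytes. Hyaluronidases and lysosomal glycosidases break it down. In lung and airway, hyaluronan is known for accumulating in injured and inflamed tissue.

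Of the 8 member genes measured, the receptor genes Stab1 and Cd44 were called higher at 48 hpi and 0 were called lower. In a list of this size, 0 lower calls are near the share of all genes given below. By the probe set with the highest mean of each gene, Stab1 rose 2.54-fold (95% interval 2.14 to 3.01) and Cd44 rose 1.91-fold (1.61 to 2.26). None of the 3 synthase genes passed the test, nor did Hyal2, Tnfaip6 or Vcan. Thus 2 of 8 genes were higher and 0 were lower, where 4.97% of all genes were called higher and 1.24% lower. Over probe sets, 4 of 19 were higher and 0 lower, against 3.49% and 0.846% of all probe sets. With the replicate number as a block, Vcan passed as well, which made 3 of 8 genes and 6 of 19 probe sets higher (8.77% of all genes and 6.43% of all probe sets). A probe set is a group of short probes that reads 1 stretch of a transcript. A call means an adjusted p under 0.05 in limma over all probe sets.

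**Figure D1:**
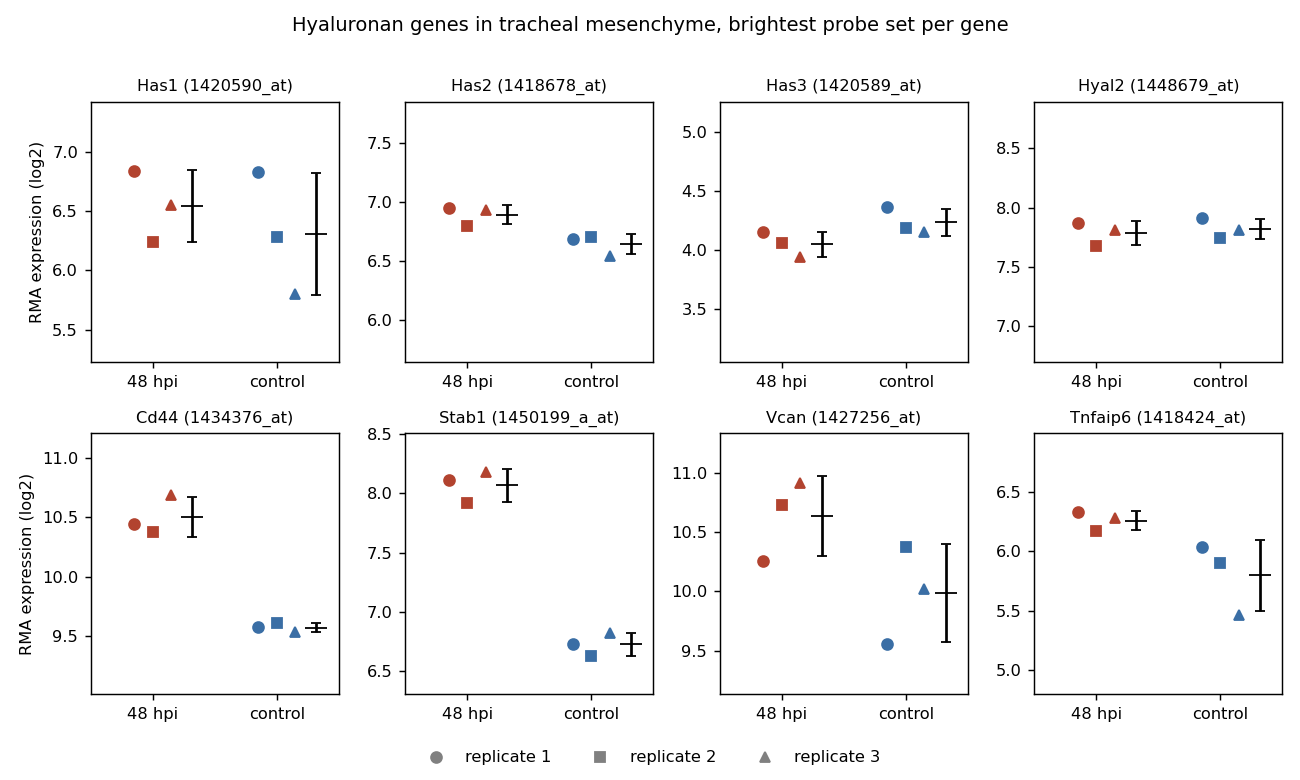
Expression of 8 hyaluronan genes (vertical axis, log2 RMA values) at 48 hpi and in controls (horizontal axis), by the probe set with the highest mean. Symbols are samples by replicate number, and bars are the mean ± SD of 3 samples. The groups lie well apart for Cd44 (10.50 against 9.57) and Stab1 (8.07 against 6.73). For Has2, Has3 and Tnfaip6 they do not overlap either, but by small margins.

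The promoter windows of the genes that were called in either fit, and of Tnfaip6, are shown so that the stretches searched for motifs can be read beside the values. They come from RefSeq (GRCm38.p6), where 7 of the 9 genes had an entry. Each is given 5′ to 3′ on the strand of the gene and covers the 250 bases before its start. The Cd44 stretch is chr2:102901666-102901915 (minus strand), that of Stab1 is chr14:31168642-31168891 (minus strand), that of Vcan is chr13:89742513-89742762 (minus strand) and that of Tnfaip6 is chr2:52037863-52038112 (plus strand). Capitals mark a match to a searched motif.
Cd44: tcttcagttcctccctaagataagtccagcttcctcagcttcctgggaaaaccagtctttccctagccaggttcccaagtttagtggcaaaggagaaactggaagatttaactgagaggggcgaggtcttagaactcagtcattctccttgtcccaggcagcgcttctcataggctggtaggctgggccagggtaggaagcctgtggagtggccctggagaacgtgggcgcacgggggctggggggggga
Stab1: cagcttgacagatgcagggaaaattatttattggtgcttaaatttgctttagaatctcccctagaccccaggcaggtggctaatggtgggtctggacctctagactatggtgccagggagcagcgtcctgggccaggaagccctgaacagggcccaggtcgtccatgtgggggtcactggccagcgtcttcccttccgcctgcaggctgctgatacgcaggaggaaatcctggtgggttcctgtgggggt
Vcan: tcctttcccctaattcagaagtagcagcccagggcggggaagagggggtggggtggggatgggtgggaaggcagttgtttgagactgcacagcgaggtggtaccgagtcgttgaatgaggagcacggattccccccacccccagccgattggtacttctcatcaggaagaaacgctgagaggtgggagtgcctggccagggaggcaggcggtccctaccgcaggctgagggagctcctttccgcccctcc
Tnfaip6: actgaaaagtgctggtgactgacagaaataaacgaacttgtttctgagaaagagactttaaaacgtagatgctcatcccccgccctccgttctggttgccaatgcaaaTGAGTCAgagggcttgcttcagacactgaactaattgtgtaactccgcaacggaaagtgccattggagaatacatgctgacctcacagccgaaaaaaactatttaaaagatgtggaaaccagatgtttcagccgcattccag

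Windows of 300 bases, from 250 before the start to 50 after it, were searched on both strands for the AP-1 motif TGANTCA, the TATA box TATAAA and the NF-kappaB consensus. Those of Cd44, Stab1 and Vcan held no match. Tnfaip6 held an AP-1 match that begins at position -142 from its start, and 7.81% of 32851 RefSeq promoter windows held that motif. Hyal2 held an NF-kappaB match at position -238, which reads as a match on both strands, as did 8.46% of windows on either strand. The TATA box, which 13.6% of windows held, was in none of the 7. The windows of Cd44, Stab1 and Vcan were 58%, 57.3% and 61% G or C, that of Tnfaip6 was 47%, and the median window was 52.7%. These matches are a description of the letters only.

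All called probe sets belonged to the receptors Stab1 and Cd44. Stab1 encodes stabilin-1, a scavenger receptor of macrophages and of sinusoidal and lymphatic endothelium, whose binding of hyaluronan was not measured here. Its probe set 1450199_a_at read 8.11, 7.92 and 8.18 at 48 hpi, against 6.73, 6.63 and 6.82 in controls (log2 RMA expression, replicates 1 to 3). The groups lay apart by more than the spread within either, and no injured sample came near a control. The log2 fold change was 1.34 ± 0.10 (SE, n = 3 each, adjusted p = 0.00110), which placed Stab1 251st from the top of all genes by fold. Within same-numbered samples the differences were 1.38, 1.29 and 1.37. The call held in all 6 fits that left out 1 sample, with adjusted p up to 0.00936.

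Cd44 is the main cell surface receptor for hyaluronan and is found on fibroblasts, leukocytes and proliferating epithelial cells. It read, by the probe set with its highest mean (1434376_at), 10.44, 10.38 and 10.69 at 48 hpi, against 9.57, 9.61 and 9.53 in controls. The 3 controls lay close together (SD 0.04) and below every injured sample. The log2 fold change was 0.93 ± 0.10 (SE, n = 3 each, adjusted p = 0.00485), and the call survived the loss of any single sample (adjusted p up to 0.0291). Cd44 was 453rd from the top of all genes by fold.

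Of the other Cd44 probe sets, 2 rose too. For 1423760_at the values were 10.20, 10.16 and 10.47 at 48 hpi, against 9.57, 9.18 and 9.43 in controls (log2 fold change 0.88 ± 0.13, SE, adjusted p = 0.0160). For 1452483_a_at they were 6.30, 5.57 and 6.40 at 48 hpi, against 4.62, 4.65 and 4.20 in controls (1.60 ± 0.23, adjusted p = 0.0143). Again no injured sample overlapped a control. Probe sets under 4.74 (percentile 40 of the whole table) are called dim here, and the control mean of 1452483_a_at, 4.49, was one of these, so its fold is poorly fixed. Both calls were lost without 48 hpi replicate 3 (adjusted p = 0.0681 and 0.0667) and without control replicate 3 (0.0618 and 0.0582). The remaining probe set, 1443265_at, was dim in both groups, at 3.23 ± 0.15 at 48 hpi and 3.18 ± 0.06 in controls (SD, n = 3), and was not called.

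Cd44 is spliced into many forms, and which of them each probe set reads was not checked. The signal of 1452483_a_at minus that of 1434376_at was -4.81 to -4.14 at 48 hpi and -5.33 to -4.96 in controls, so that the fold changes of this pair differed by 0.67 on the log2 scale. An exact two-sided permutation test of that difference gave p = 0.1, the smallest that 3 against 3 samples allow, and 0.35 after adjustment over the 7 pairs of probe sets compared within Cd44, Vcan and Has2. For 1423760_at minus 1434376_at the difference of log2 fold changes was -0.05 (exact permutation p = 0.7).

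Markers of macrophages, which carry both receptors, rose in the same samples. Of 8 markers 7 were called higher, where 4.97% of all genes were, or 8.77% with the replicate block. The median log2 fold change of the 8 was 1.48, and their mean log2 level was 8.66 to 9.14 at 48 hpi, against 7.13 to 7.34 in controls. Cd68 rose by 2.28 and Adgre1 by 1.27, Csf1r, Itgam, Msr1, Mrc1 and Ptprc rose as well, and Cd163 (1.03) passed only with the replicate block (adjusted p = 0.0638 without it and 0.0213 with it). None of the 8 was dim in both groups. Of 4 lymphatic endothelial markers 0 were called, or 1 with the block, Pdpn at adjusted p = 0.0200. Their mean level was 8.19 to 8.52 at 48 hpi, against at most 8.25 in controls. Of 5 blood endothelial markers Cdh5 and Tie1 were higher, and Pecam1 too with the block, at adjusted p = 0.0275. Tek (0.38) and Kdr (-0.13) were called in neither fit. The mean level of these 5 was 7.31 to 7.49 at 48 hpi, against 6.83 to 7.15 in controls. Of 6 neutrophil markers 3 were higher, S100a8 (4.27), S100a9 (4.13) and Csf3r (1.12). Cxcr2 (0.24, dim in both groups), Camp (0.01) and Mpo (-0.14) were not called. The mean level of all 6 was 6.38 to 7.07 at 48 hpi, against 4.54 to 5.57 in controls. On leaving out single samples, Cdh5 kept its call in 1 of 6 fits, S100a8 in 2, S100a9 and Tie1 in 3 and Msr1 in 5. In bulk tissue, more cells of a type and more RNA per cell cannot be told apart, and the part of these cells in the rise of Stab1 and Cd44 was not tested.

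**Figure D2:**
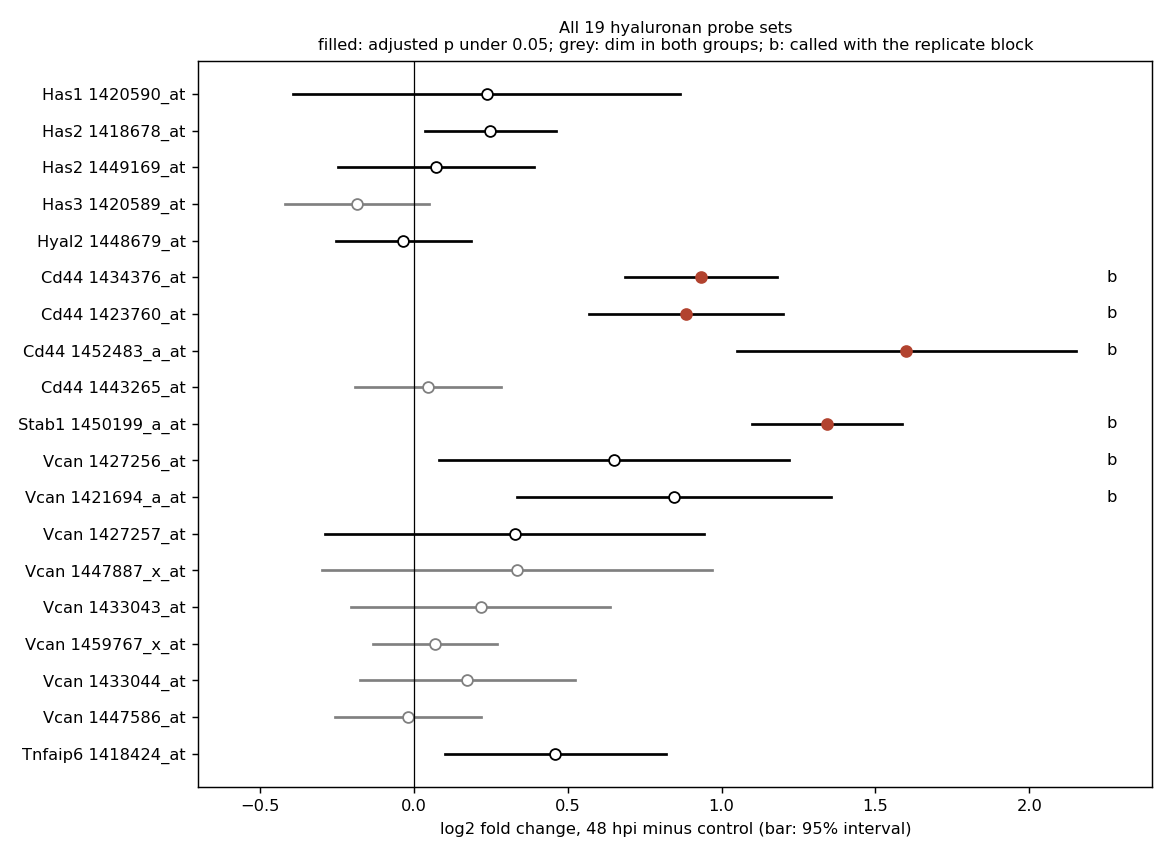
Change at 48 hpi relative to control (horizontal axis, log2) in all 19 hyaluronan probe sets (vertical axis), with 95% intervals from limma. Filled symbols passed at adjusted p under 0.05 (3 of Cd44 and 1 of Stab1), grey marks probe sets dim in both groups, and b marks those called with the replicate block, which adds 2 of Vcan.

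Versican is a large chondroitin sulfate proteoglycan that binds hyaluronan at its amino-terminal end. Its 3 probe sets that were not dim in both groups were higher at 48 hpi within every replicate number. None of them passed without the replicate block, which treats equal numbers as pairs, and the labels do not settle that pairing. The Vcan probe set with the highest mean, 1427256_at, read 10.26, 10.73 and 10.92 at 48 hpi, against 9.55, 10.38 and 10.02 in controls. The lowest injured value lay under the highest control, so the groups overlapped. The log2 fold change was 0.65 ± 0.24 (SE, n = 3 each, adjusted p = 0.203), and with the replicate block 0.65 ± 0.12 (adjusted p = 0.0202).

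A second bright Vcan probe set gave like differences within the 3 replicate numbers. The values of 1421694_a_at were 9.69, 10.36 and 10.03 at 48 hpi, against 8.84, 9.51 and 9.21 in controls. Here the groups did not overlap, and the differences within numbers 1, 2 and 3 were 0.86, 0.85 and 0.83. The log2 fold change of 0.85 ± 0.22 missed the threshold without the block (adjusted p = 0.0843) and passed with it (0.85 ± 0.08, adjusted p = 0.00215). The third bright probe set, 1427257_at, read 8.05, 8.83 and 8.18 at 48 hpi, against 7.58, 8.38 and 8.11 in controls. It did not pass in either fit (0.33 ± 0.26, adjusted p = 0.550, and 0.105 with the block). For 1427257_at minus 1421694_a_at the difference of log2 fold changes was -0.52 (exact permutation p = 0.1, the smallest possible, and 0.35 adjusted over 7 pairs). The other 5 Vcan probe sets were dim in both groups, with log2 fold changes from -0.02 to 0.34 and no call in either fit.

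**Figure D3:**
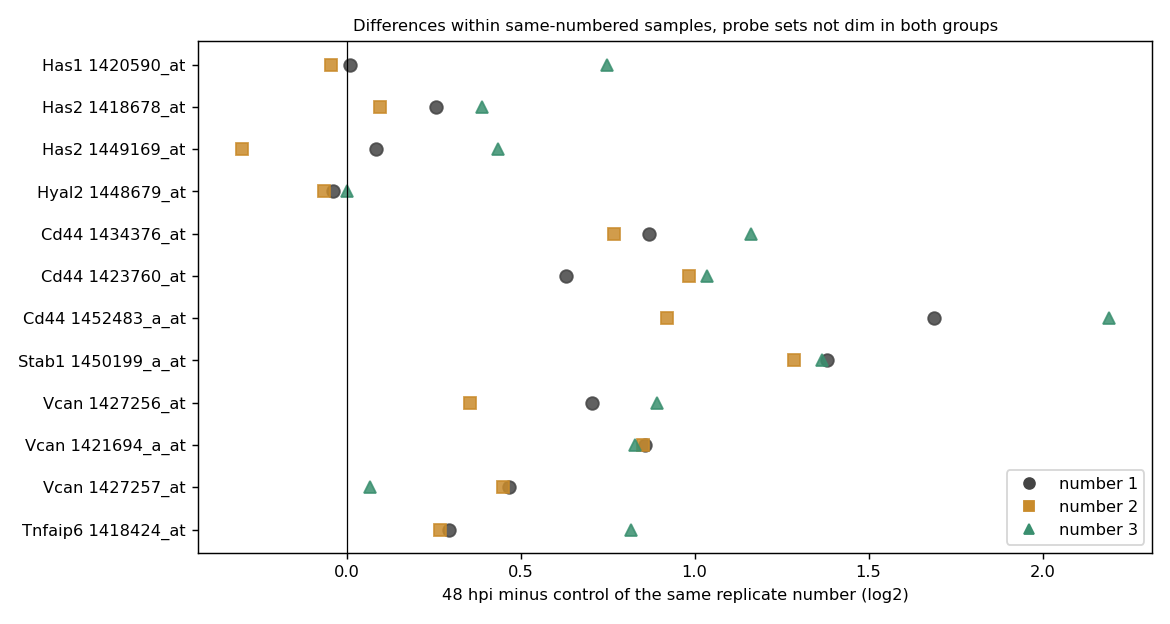
Differences between the 48 hpi and the control sample of the same replicate number (horizontal axis, log2) for the 12 hyaluronan probe sets that were not dim in both groups (vertical axis), 1 symbol per number. The 3 differences of Stab1 lie between 1.29 and 1.38 and those of Vcan 1421694_a_at between 0.83 and 0.86, while those of Has1 run from -0.05 to 0.75.

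The hyaluronan synthases stayed below the threshold. Has2, the synthase most needed in development and in fibroblasts, has 2 probe sets. With 1418678_at it read 6.95, 6.80 and 6.93 at 48 hpi, against 6.69, 6.70 and 6.54 in controls. All injured values lay above all controls, by a small margin, with a log2 fold change of 0.25 ± 0.09 (SE, n = 3 each, 95% interval 0.04 to 0.46, adjusted p = 0.196). With 1449169_at, at 6.66, 6.47 and 6.80 at 48 hpi, against 6.57, 6.78 and 6.36 in controls, the groups overlapped and the value was 0.07 ± 0.14 (adjusted p = 0.817).

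Has1 differed more between replicates than between groups. It read 6.84, 6.24 and 6.55 at 48 hpi, against 6.83, 6.28 and 5.80 in controls. The samples numbered 1 were the highest in both groups, and numbers 1 and 2 were close across groups, with differences of 0.01 and -0.05, while number 3 differed by 0.75. Its log2 fold change was 0.24 ± 0.27 (95% interval -0.39 to 0.87, adjusted p = 0.681), and without control replicate 3 it was -0.01. Has3 was dim in all samples, at 4.15, 4.06 and 3.94 at 48 hpi, against 4.37, 4.19 and 4.16 in controls. Its injured values all lay below its controls, yet only by -0.19 ± 0.10 (adjusted p = 0.373).

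Hyal2, a hyaluronidase anchored to the cell surface that cuts long chains, differed by less than the spread between samples. It read 7.87, 7.68 and 7.81 at 48 hpi, against 7.91, 7.74 and 7.81 in controls. Its log2 fold change was -0.03 ± 0.09, and its 95% interval, -0.25 to 0.19, leaves room for changes of up to 1.14-fold upward and down to 0.839-fold (adjusted p = 0.883).

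Tnfaip6 encodes TSG-6, which moves heavy chains onto hyaluronan and is induced by inflammatory cytokines in many cells. It read 6.33, 6.17 and 6.28 at 48 hpi, against 6.04, 5.90 and 5.46 in controls. The groups did not overlap, but control replicate 3 lay well under the other controls. Its log2 fold change was 0.46 ± 0.15 (95% interval 0.10 to 0.82, adjusted p = 0.160, and 0.0655 with the replicate block). Over all 19 probe sets, 7 had their injured values all above the controls and 1 had them all below, where 13.0% and 12.1% of all probe sets did. Besides the 4 called, 4 more had an unadjusted p under 0.05 in limma. The share of all probe sets under that bound was not counted, so nothing is read from this number.

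Beyond these genes, 46 of 48 listed genes of hyaluronan metabolism were measured, in 7 lists by role. Of these 7 were higher and 3 lower, where 4.97% of all genes were higher and 1.24% lower. Their median log2 fold change was 0.04, against -0.01 over all genes. With the replicate block 9 were higher and 5 lower, where 8.77% of all genes were higher and 4.64% lower. In the leave-one-out fits 3 to 5 were higher and 0 to 1 lower. Calls over all genes fell in these fits too, from 904 to 349 to 647 higher and from 226 to 17 to 98 lower. The count of the listed genes was 3 higher and 0 lower without 48 hpi replicate 1, without 48 hpi replicate 3 or without control replicate 3. Gusb, Hmmr and Ptx3 were the genes called in all 6 of these fits.

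Of the 8 genes that supply the sugar precursors, 0 were called. Their log2 fold changes ran from -0.38 for Gfpt1, the rate-limiting enzyme of the hexosamine pathway, to 0.37 for the kinase Nagk. Ugdh, which makes UDP-glucuronic acid, read 10.85, 10.73 and 10.86 at 48 hpi, against 10.89, 11.04 and 10.85 in controls (-0.12 ± 0.09, adjusted p = 0.543). With the replicate block 0 of the 8 were called as well. In a list of this size, 0 calls are near the shares of all genes given above.

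Among 7 other degrading enzymes 1 rose and 1 fell. Gusb, the lysosomal beta-glucuronidase that trims sugars from hyaluronan fragments, read 8.90, 8.85 and 8.85 at 48 hpi, against 8.20, 8.07 and 8.10 in controls. It rose by 0.75 ± 0.08 (SE, adjusted p = 0.00412), with both of its 2 probe sets called. Cemip, which binds hyaluronan and is needed for its breakdown by skin fibroblasts, read 9.33, 9.22 and 9.19 at 48 hpi, against 10.32, 9.71 and 10.35 in controls. It fell by 0.88 ± 0.18 (adjusted p = 0.0397), in 1 of 3 probe sets, and kept its call only without control replicate 2, and the highest adjusted p on leaving out another sample was 0.155. Hexa, a lysosomal hexosaminidase subunit gene, was at -0.15 ± 0.09 (adjusted p = 0.441).

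The other 6 receptors all lay above 0, where 8510 of all 18193 genes did, and 1 of 6 was called. Tlr2 (0.17 ± 0.11) and Tlr4 (0.03 ± 0.14) were not called. Hmmr, which binds hyaluronan at the cell surface and is also a protein of the mitotic spindle, read 7.15, 7.51 and 7.91 at 48 hpi, against 4.96, 4.63 and 5.32 in controls. It rose by 2.55 ± 0.23 (adjusted p = 0.00220), in 3 of 5 probe sets. The proliferation markers Mki67, Top2a and Cdk1 moved with it, all 3 called higher, at a mean level of 8.64 to 9.21 at 48 hpi, against 5.37 to 5.88 in controls, and their part in the rise of Hmmr was not tested. Lyve1, the lymphatic hyaluronan receptor, read 10.29, 9.80 and 10.16 at 48 hpi, against 9.52, 9.79 and 9.56 in controls (0.46 ± 0.15, adjusted p = 0.147). Stab2, the endocytic hyaluronan receptor of sinusoids, was dim, at 0.04 ± 0.14. Layn (0.38 ± 0.09) passed only with the replicate block (adjusted p = 0.0585 without it and 0.0451 with it).

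Genes in the list of cross-linkers and heavy chains went both ways. Ptx3, a pentraxin that binds TSG-6 and heavy chains in hyaluronan-rich matrix, read 8.69, 7.54 and 8.75 at 48 hpi, against 5.69, 5.90 and 5.72 in controls (2.55 ± 0.31, adjusted p = 0.00686, 1 of 2 probe sets). The heavy chain family gene Itih4 read 5.74, 6.15 and 6.09 at 48 hpi, against 3.99, 4.98 and 4.83 in controls. It rose by 1.39 ± 0.26 (adjusted p = 0.0328), a fold that is poorly fixed because its control mean, 4.60, was dim. By contrast Itih5 fell by 0.97 ± 0.17 (adjusted p = 0.0251), in 2 of 3 probe sets, with 9.93, 10.30 and 9.71 at 48 hpi, against 10.93, 10.78 and 11.14 in controls. Itih4 kept its call in 2 of the 6 leave-one-out fits, without control replicate 1 or 2, and Itih5 in 1, without 48 hpi replicate 2. Itih2 (-0.54 ± 0.18) passed only with the replicate block (adjusted p = 0.161 without it and 0.0239 with it).

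Of the lecticans and link proteins, 0 of 7 rose and 1 fell. Hapln1, which locks aggrecan onto hyaluronan in cartilage, read 10.76, 10.98 and 10.87 at 48 hpi, against 11.26, 11.62 and 11.75 in controls. It fell by 0.68 ± 0.14 (adjusted p = 0.0449), in all 4 of its probe sets, and kept its call only without control replicate 1. Acan, the cartilage proteoglycan that Hapln1 holds, was at -0.23 ± 0.10 (adjusted p = 0.276), and Bcan (-0.55 ± 0.16) passed only with the replicate block (adjusted p = 0.112 without it and 0.0381 with it). All 6 cartilage markers, Acan among them, lay below 0, where 9683 of all 18193 genes did. Without the block 0 were called, and with it 4 were lower (Sox9, Matn1, Matn3 and Cnmd, adjusted p = 0.0110 to 0.0292). With the block 4.64% of all genes were lower. The mean level of the 6 markers was 10.60 to 11.03 at 48 hpi, against 11.32 to 11.37 in controls. The part of cartilage in the fall of Hapln1 was not tested.

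Among 6 proteases that cut versican, Adamts4 rose by 1.07 ± 0.21 (adjusted p = 0.0405), in both of its 2 probe sets. It read 7.02, 6.75 and 7.24 at 48 hpi, against 6.30, 5.51 and 5.99 in controls, with no overlap, and kept its call only without control replicate 1. Of 5 measured partners and sheddases of Cd44, 2 rose. Moesin (Msn), which links the Cd44 tail to actin, read 11.25, 11.14 and 11.38 at 48 hpi, against 10.71, 10.74 and 10.53 in controls (0.60 ± 0.10, adjusted p = 0.0241). Adam10, which sheds Cd44, read 9.69, 9.67 and 9.81 at 48 hpi, against 9.17, 9.33 and 9.06 in controls (0.54 ± 0.10, adjusted p = 0.0318, 1 of 4 probe sets). Each passed in 1 of the 6 leave-one-out fits, Msn without 48 hpi replicate 2 and Adam10 without control replicate 2. Mmp14, a membrane protease that also cuts Cd44, passed only with the replicate block (0.47 ± 0.16, adjusted p = 0.170 without it and 0.0371 with it).

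**Figure D4:**
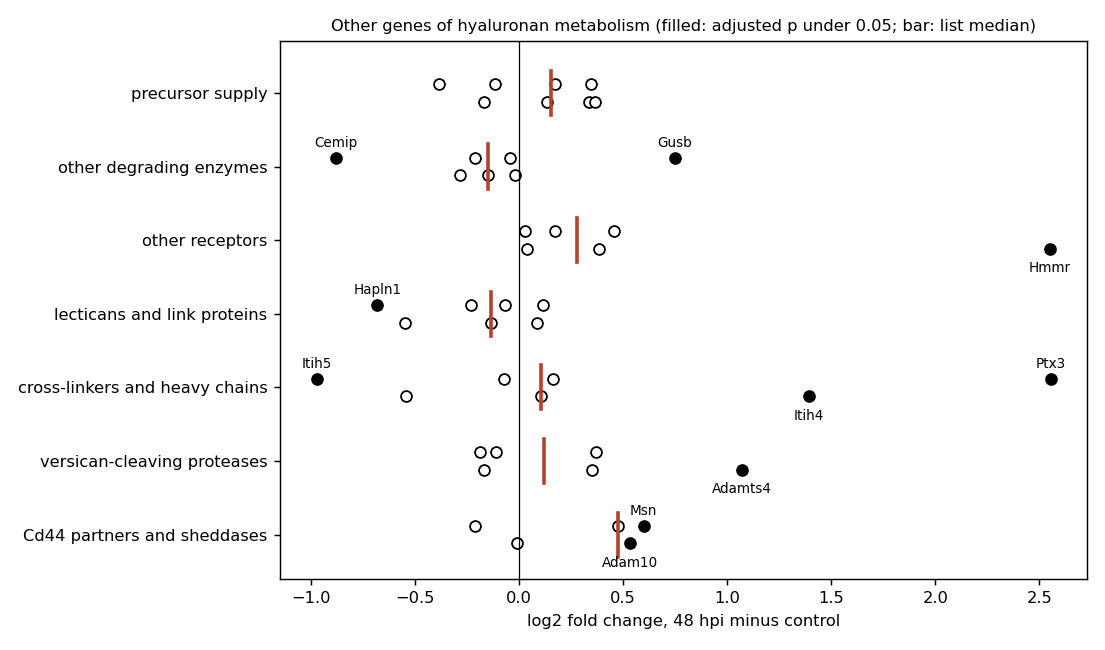
Change at 48 hpi relative to control (horizontal axis, log2) in 46 further genes of hyaluronan metabolism in 7 lists by role (vertical axis), 1 point per gene, with a bar at each list's median. Filled points are the 7 genes that rose and the 3 that fell, from 2.55 for Ptx3 and Hmmr to -0.97 for Itih5.

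As a description over the 6 arrays, the genes most like Stab1 were Prim2, a DNA primase subunit gene (Pearson r = 0.9996), the spindle checkpoint gene Bub1b (0.9995) and Tcf19 (0.9992). Those most like Cd44 were Sgpl1, the sphingosine phosphate lyase gene (0.9997), Cops2 (0.9989) and Mthfd1l (0.9989). In a design with a pair of groups, many genes reach such values: 762 genes had an r over 0.95 with Stab1 and 796 with Cd44.

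Arrays of a group correlated at 0.987 to 0.994 over probe sets. Fibroblast markers had mean log2 levels of 12.07 to 12.28 at 48 hpi, against 12.09 to 12.30 in controls. Of the 5, Dpt fell by 0.53 (adjusted p = 0.0393), a call lost on leaving out any single sample (0.0637 to 0.129), and Col1a1 was higher with the replicate block alone (0.0221). Of 4 smooth muscle markers 0 were called. Epithelial RNA was also present, with 0 of 7 markers called without the block and 1 with it (Scgb1a1, lower, adjusted p = 0.0146). Scgb1a1, a secretory cell product, read 12.31, 9.90 and 8.72 at 48 hpi, against 13.46, 12.69 and 12.50 in controls. The signal of the 3′ over the 5′ control probe sets of beta-actin, a sign of RNA integrity, was 1.07, 0.82 and 1.19 at 48 hpi, against 1.74, 1.02 and 1.73 in controls on the log2 scale. For Gapdh it was 0.61, 0.49 and 0.96 at 48 hpi, against 1.20, 0.56 and 1.35 in controls. The part of RNA integrity in the values above was not tested.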

How the data were processed

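RNA of 6 samples was hybridized, 1 sample per array, to Affymetrix mouse arrays. The authors normalized them by RMA, which corrects background, equalizes the intensity distributions of the arrays and summarizes probes, and deposited log2 values per probe set; the submitters' processing notes name Partek 6.5 and Affymetrix Expression Console 1.1. RMA hides changes shared by most genes and shrinks folds of dim genes. Of 45101 probe sets, 64 controls were left out, and 34945 had 1 gene symbol, 932 several and 9160 none. Symbols were matched through Entrez identifiers to RefSeq names (34741 probe sets).

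The 48 hpi and control samples were compared with limma 3.58.1 in R 4.3.3 (lmFit, eBayes, two-sided, group only), with Benjamini-Hochberg adjustment over 45037 probe sets. The two-way design of the study's methods also needs the epithelium, which was not analysed here. A gene took its probe set with the highest mean. Every member is named, and every called gene of the 7 wider hyaluronan lists by its highest-mean probe set. Cell type markers are given by list. The members and lists were chosen with earlier results of these data known. Alternatives were a replicate block, leaving out samples, renormalization, a dim filter, other priors, an equal-variance test and other probe set rules. The fit without the replicate block was tested on simulated data with independent noise in each array. That setting lacks the correlation of same-numbered samples given next, and the block was not tested in it. After removal of group means, same-numbered samples of the groups correlated at 0.62, 0.36 and 0.34 over probe sets. Samples of different numbers correlated at -0.43 to 0.18. The numbers were therefore taken as pairs in the alternative fit, although the labels name no shared day and do not settle the pairing. Calls and permutation tests in the text ignore the numbers, except where the replicate block, an alternative, is named. The number of arrays limits the precision.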

Additional observations from a re-analysis of the deposited data

How the results depend on the processing

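Cd44 and Stab1 were higher under all 15 alternatives and called under 14 of them; with the equal-variance test neither passed (adjusted p = 0.0725 and 0.0518). That test called 0 hyaluronan genes and 0 hyaluronan probe sets higher. In it 6 of the 19 probe sets had an unadjusted p under 0.05, and the share of all probe sets that did was not counted. Over the whole series the equal-variance test called 41 genes (70 probe sets) higher and 4 (8) lower. Has1, Has2, Has3, Hyal2 and Tnfaip6 were called under none of theirs, and Vcan only with the replicate block.

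With the replicate block 1596 genes (2896 probe sets) were higher and 845 (2032) lower, against 904 (1572) and 226 (381) without it, and 5 in place of 3 wider hyaluronan genes were lower. All 1130 genes called without the block were called with the same sign with it. Leaving out 1 sample at a time gave 349 to 647 genes (548 to 1086 probe sets) higher and 17 to 98 (34 to 176) lower, and 2 to 4 hyaluronan probe sets higher, with 2 without 48 hpi replicate 3 or control replicate 3. The fold change of Has1 ran from -0.014 (without control replicate 3) to 0.50 in these fits and that of Hyal2 from -0.075 to 0.022 (the highest without 48 hpi replicate 2, with 0.011 without control replicate 1). Without both samples numbered 1, chosen after the data were seen, 413 genes (683 probe sets) were higher and 76 (144) lower, and the same 2 hyaluronan genes passed. Taking the mean of a gene's probe sets gave Vcan 0.33 and Has2 0.16, and taking the most variable one gave Has2 0.07 and Cd44 1.60. Settings not named here kept these calls within 1.5 times.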
